A study of Homo sapiens with 3 samples.

Results

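The comparison described here sets HCT116 cells treated with siRNA #8 against HCT116 cells treated with control siRNA. These cells come from a human colorectal carcinoma and are kept as an established line. The comparison takes 2 of the 3 arrays of the study, 1 per condition, and values of the third, from cells treated with siRNA #7, are given beside it. Each siRNA, the control included, was used at 10 nM for 48 h. From each culture 400 ng of RNA was labeled with 1 dye and read on its own whole-genome SurePrint G3 array. Of the 21614 genes with a named probe on the array, 12302 were measured in this comparison, that is, at least 1 of their probes was well above background with both control siRNA and siRNA #8. With 1 array a side there is no replicate, so no difference is tested, and "2-fold" below is a threshold of size only.

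Small interfering RNAs are short duplexes of which 1 strand, the guide, is loaded into an Argonaute protein and directs the cutting of RNAs that pair with it along their whole length. A guide can also lower transcripts that pair only with its seed, a short stretch near its 5′ end, so that siRNAs with different seeds against the same RNA are commonly used side by side. *HOXA5* encodes a homeobox transcription factor that patterns the body axis and, in the intestine, is known to promote differentiation. The siRNAs were designed against *HOXA5* short RNA, a polyadenylated transcript that starts upstream of *HOXA6* and skips the first exon of *HOXA5*.

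The sequences of both siRNAs are shown because the comparison turns on them. They are written 5′ to 3′ as the study listed them, in the same sense as the target, and capitals mark the bases that they share.
siRNA #8: AACUGAAAGACAACAUAggcg
siRNA #7: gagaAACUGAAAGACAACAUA
Each is 21 bases long, and 17 bases are common to both, since the site of siRNA #8 lies 4 bases downstream of that of siRNA #7. The strand complementary to the target, the guide if the duplex loads as designed, begins at the other end, so the seeds (bases 2 to 8 of that strand, in capitals) differ.
siRNA #8, complementary strand: cGCCUAUGuugucuuucaguu
siRNA #7, complementary strand: uAUGUUGUcuuucaguuucuc
Transcript sequences that would show which genes hold a match to either seed were not used here.

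The targeted locus was examined first. The single *HOXA5* probe, on 1 spot, read 84.9 (control siRNA), 52.6 (siRNA #7) and 58.5 (siRNA #8). These values are intensities. An intensity is the brightness of a spot after subtraction of background, in arbitrary units. Wherever 3 intensities stand together they follow this order. The siRNA arrays were dimmer as a whole, with 75th percentiles of 42.1 (siRNA #7) and 42.8 (siRNA #8) against 52.8 (control siRNA). Each log2 intensity was therefore taken relative to the log2 75th percentile of its own array, which gives the level of a probe, and a log2 ratio is a difference of levels between arrays. The log2 ratio of *HOXA5* with siRNA #8 over control siRNA was -0.23, with a spot-to-spot SD of 0.26, and it was -0.36 with siRNA #7. The difference with siRNA #8 was thus within the spotting error of 1 spot. The position of the probe was not used here, so *HOXA5* mRNA and *HOXA5* short RNA cannot be told apart in this value. The adjacent *HOXA6*, whose upstream region holds the start of *HOXA5* short RNA, was dim, with intensities of 15.9 with control siRNA and 21.5 with siRNA #8 and a log2 ratio of 0.74 (spot-to-spot SD 0.41). *EGFR*, the receptor of the growth factor signaling that the study followed, had log2 ratios of 0.22 and 0.56 on its 2 passing probes, each with a spot-to-spot SD of 0.41, on dim spots (control intensities of 35.1 and 10.6).

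Over the whole array, 18786 probes were well above background on both arrays, and their median log2 ratio was 0.022 with an SD of 0.50 across probes. Of these, 443 probes (2.36%) were past 2-fold on the higher side with siRNA #8 and 521 (2.77%) on the lower side, so that 46.0% of the probes past 2-fold were higher. This split depended on the scaling. With the arrays scaled on the 10 E1A spike-in probes all ratios were 0.24 lower, and 18.4% were higher. The higher probes were dim, with a median intensity of 26.1 with control siRNA, against 159 for the lower probes and 122 for all passing probes. The error of spotting was taken from probes printed on 10 spots of the same array. Their log2 intensities varied with a pooled SD of 0.31 in the dimmest sixth and 0.10 in the brightest sixth on the control siRNA array, and of 0.28 and 0.11 on the siRNA #8 array. This error leaves out the variation between cultures, which 1 array per condition cannot show.

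**Figure D1:**
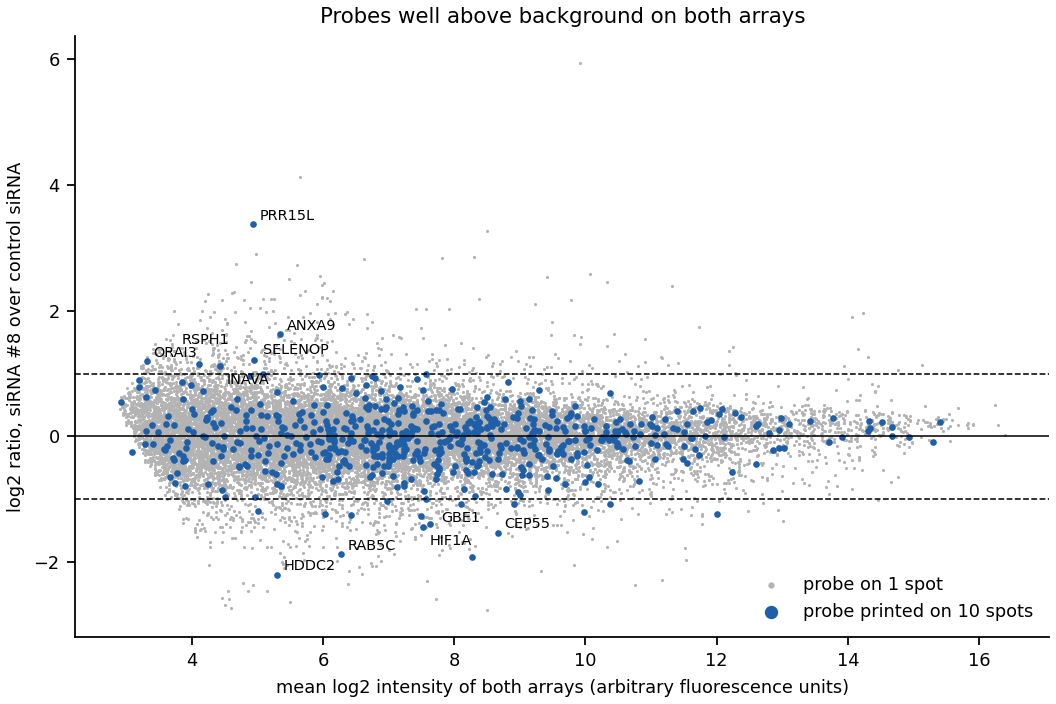
Log2 ratio of siRNA #8 over control siRNA (vertical axis) against the mean log2 intensity of both arrays (horizontal axis) for the 18786 passing probes. Grey points are probes on 1 spot, blue points are probes printed on 10 spots, and dashed lines mark 2-fold; *PRR15L* stands highest among the probes on 10 spots, at 3.38, and *HDDC2* lowest, at -2.20.

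A ratio from 1 spot is a weak measurement, so 2 groups of better supported values carry the description. The first holds genes with at least 2 passing probes that all lie on the same side of 0, and the second holds probes printed on 10 spots. Of the 2838 genes with at least 2 passing probes, 922 were higher on every probe, 879 were lower on every probe and 1037 had probes on both sides. The probes of 1 gene varied around their mean with a pooled SD of 0.39 on the log2 scale, which is larger than the pooled spot-to-spot SD of a ratio (0.24). Of the 136 probes past 2-fold higher whose gene had another passing probe, 64.7% belonged to a gene with all probes higher. Of the 176 such probes past 2-fold lower, 74.4% belonged to a gene with all probes lower. Each share counts the probe itself, which lies on that side by selection. Most of all 2838 genes (922 and 879) also had every probe on 1 side, so these shares alone say little. For 27.9% of the higher and 40.3% of the lower probes, all probes of the gene were past 1.5-fold on that side. A mean of at least 2-fold with all probes on 1 side was reached by 25 genes higher (0.881%) and 39 genes lower (1.37%). Counted by the mean of whatever probes passed, 237 genes were past 2-fold on the higher side (1.93%) and 331 on the lower (2.69%).

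Among the lower genes with several probes *ESCO2*, which acetylates cohesin so that sister chromatids hold together, was the lowest. Its probes read 91.9 (control siRNA), 59.1 (siRNA #7) and 13.6 (siRNA #8), and 63.8, 41.1 and 8.08. Both were far below control with siRNA #8, with log2 ratios of -2.46 and -2.68 (on average 5.92-fold lower), whereas the siRNA #7 array gave -0.31 and -0.31. With normexp background correction, an alternative that pulls dim spots together, the mean was -0.85. *CEP55*, needed for the final cut between daughter cells, read 765, 484 and 214 on a probe printed on 10 spots, and its 2 log2 ratios were -1.53 and -1.66. *SKA2*, a component of the complex that ties kinetochores to the spindle, had log2 ratios of -1.48 and -1.75, from intensities of 159 and 112 with control siRNA to 46.0 and 27.0 with siRNA #8. *MCMBP*, which binds the MCM helicase of replication, had log2 ratios of -0.99 and -1.34, on probes with control intensities of 1333 and 483.

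*KCTD9*, a member of the KCTD family of proteins with a BTB domain, was lower on 3 probes. Its brightest probe read 286 (control siRNA), 54.8 (siRNA #7) and 72.6 (siRNA #8), and its 3 log2 ratios were -1.67, -2.19 and -2.46 with siRNA #8 and -2.05, -1.62 and -1.56 with siRNA #7. For *KCTD9* both siRNA arrays were low against the control array that they share. *PRKAR2B*, a regulatory subunit of protein kinase A, read 217, 114 and 61.3 on its brighter probe. Its log2 ratios were -1.52 and -2.63, against -0.61 and -0.90 on the siRNA #7 array. *EIF4G2*, a translation initiation factor of the eIF4G family, was among the brightest of these genes, at 7004, 3989 and 2415 on a probe printed on 10 spots. Its log2 ratios with siRNA #8 were -1.23 and -1.21. *IER3*, an immediate early gene of growth factor and stress signaling, read 10783, 6245 and 4182 on its brighter probe and had log2 ratios of -1.06 and -1.23. *VDAC1*, the main channel of the outer mitochondrial membrane, had log2 ratios of -0.99 on a bright probe and -1.75 on a dim one. *MED4*, a subunit of the Mediator complex that links transcription factors to RNA polymerase II, read 1376, 811 and 419 and 221, 124 and 67.3, with a log2 ratio of -1.41 on either probe. *FMR1*, an RNA-binding protein that controls translation, was low on the siRNA #8 array alone, with log2 ratios of -1.30 and -1.44 beside -0.08 and 0.13 on the siRNA #7 array. With normexp its mean was -0.51, and the means of *KCTD9*, *PRKAR2B* and *SKA2* were -1.10, -1.15 and -0.85, each over 1.5 times smaller as a fold. *DESI2* had a mean of -1.06. *LINC00659*, a long non-coding RNA, was lower on all 5 of its probes, with log2 ratios from -1.37 to -1.09 on 4 of them, the fifth just past 2-fold, and an SD of 0.14 between probes. *MT1X* is described with the metallothioneins. The other 24 genes that met this criterion had a weakest probe between -0.13 and -0.98.

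Among the higher genes with several probes *KDM5B*, a demethylase of lysine 4 on histone H3, read 183 (control siRNA), 172 (siRNA #7) and 417 (siRNA #8), and 74.8, 71.8 and 170.0 on a second probe. Both log2 ratios with siRNA #8 were 1.49, while with siRNA #7 they were 0.24 and 0.27. *C14orf132* read 38.4, 20.8 and 90.1, and 26.6, 16.0 and 69.8. Its log2 ratios were 1.54 and 1.69, while the siRNA #7 array was below control at -0.55 and -0.41. *GPER1*, a membrane receptor for estrogen, read 63.1, 41.4 and 181 on its brightest probe. Its log2 ratios were 1.82 and 1.35, beside -0.28 and -0.30 on the siRNA #7 array. For *C14orf132* and *GPER1* the siRNA #8 array alone stood above control. *PLA2G10*, a secreted phospholipase A2, read 32.9, 42.3 and 78.2 on its brighter probe and had log2 ratios of 1.55 and 1.25, and *PROM2*, a membrane glycoprotein of epithelial protrusions, had 1.13, 1.15 and 1.86.

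*SELENOP*, which carries selenium in plasma, read 22.7 (control siRNA), 42.1 (siRNA #7) and 42.4 (siRNA #8) on a probe printed on 10 spots. Both siRNA arrays lay above control, by log2 ratios of 1.21 and 1.54 for siRNA #8 and 1.22 and 1.06 for siRNA #7. *IFITM1*, an interferon-induced membrane protein, had log2 ratios of 1.02 and 1.29, beside 0.78 and 1.13 with siRNA #7. *FXYD3*, a regulator of the sodium pump, and *KRT23*, a keratin of epithelial cells, had means of 1.01 and 1.096 with siRNA #8 and of 1.64 and 0.97 with siRNA #7. *MXD4*, a partner of Max that opposes Myc, had log2 ratios of 0.84 and 1.40. The probes of *GM2A*, the lysosomal cofactor of ganglioside breakdown, read 93.9, 235 and 542, and 37.7, 52.1 and 64.3, and differed in size, with log2 ratios of 2.83 and 1.07. So did those of *VHRT* (0.97 and 2.19), *WBP1* (0.91 and 2.02), *THRA*, the alpha receptor of thyroid hormone (0.92 and 1.70), and *PDCD5* (1.004 and 1.58). With siRNA #7 the means were 1.69 for *VHRT*, 1.18 for *WBP1*, 0.69 for *THRA* and 1.13 for *PDCD5*, so both siRNA arrays lay above control. With normexp the means of several higher genes were over 1.5 times smaller as a fold, 0.75 for *C14orf132*, 0.86 for *GPER1*, 0.63 for *PLA2G10*, 0.40 for *SELENOP*, 0.58 for *PROM2*, 0.39 for *MXD4*, 0.45 for *KRT23* and 1.27 for *GM2A*. The other 10 genes that met this criterion had a weakest probe between 0.055 and 0.82.

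**Figure D2:**
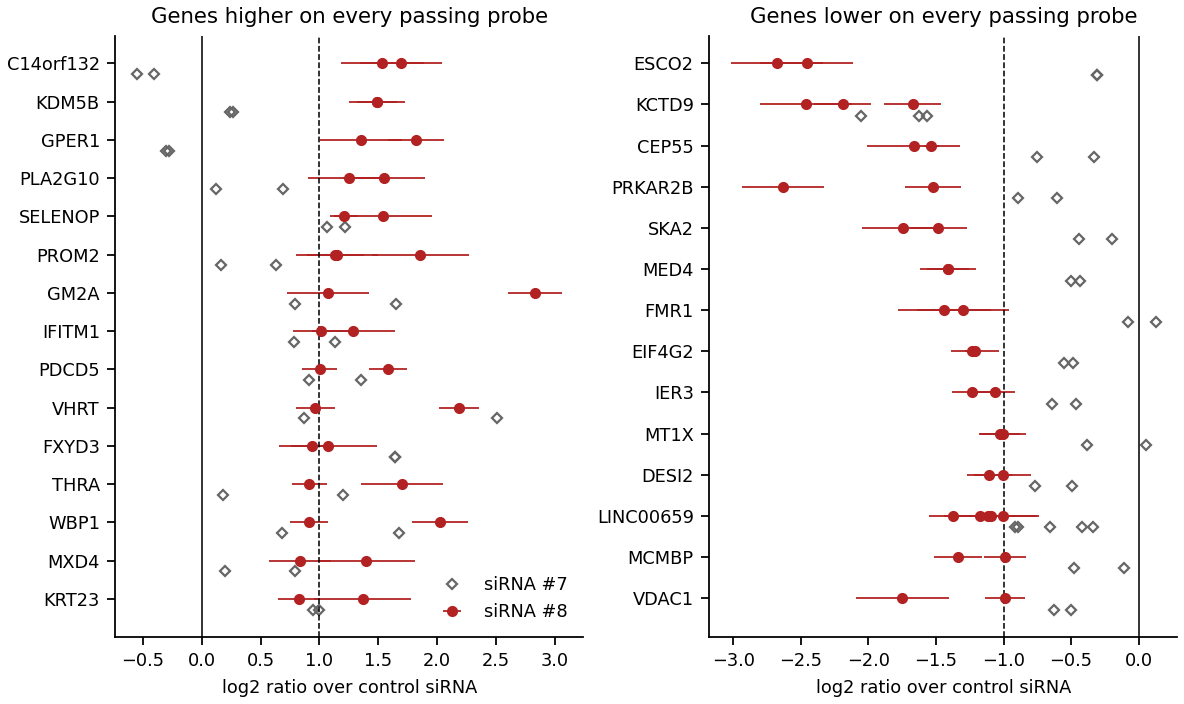
Log2 ratios over control siRNA for the 15 genes with the highest and the 15 with the lowest weakest probe among genes with at least 2 passing probes on the same side of 0, of which 1 lower gene is not drawn. Each red point is 1 probe with siRNA #8, with a bar for its spot-to-spot SD, grey diamonds are the same probes with siRNA #7, and the dashed line marks 2-fold; *ESCO2* (-2.46 and -2.68) stands lowest, and *C14orf132* has the highest weakest probe (1.54).

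Higher ratios were unevenly placed on the array. In the first 21 of its 164 columns 5.66% of the passing spots were past 2-fold on the higher side with siRNA #8, against 1.32% to 2.79% in the other column blocks, and 4.07% on the lower side, against 2.28% to 3.64%. The median log2 ratio there was -0.020, close to that of the other column blocks (0.0038 to 0.036). Of the 25 genes higher on several probes, 10 had a probe in these columns, among them *FXYD3*, *GM2A*, *MXD4*, *PDCD5*, *THRA* and *WBP1*, and of the 39 lower genes 9 had one, among them *KCTD9*, *SKA2* and *VDAC1*. Without the probes on 1 spot in these columns, a choice made after the data were seen, 15 genes were higher and 32 lower on several probes, and 301 and 434 probes were past 2-fold. A gene left with 1 passing probe can no longer meet the criterion of several probes. The fall in genes therefore follows in part from the removal itself and does not measure an effect of position. When the median of the neighboring spots was removed from each spot, 18 of the 25 higher and 29 of the 39 lower genes still met the criterion. Of the genes described above, *PDCD5* and *MCMBP* then had a mean under 2-fold, at 0.98 and -0.93. The part of position in the single values was not tested.

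**Figure D3:**
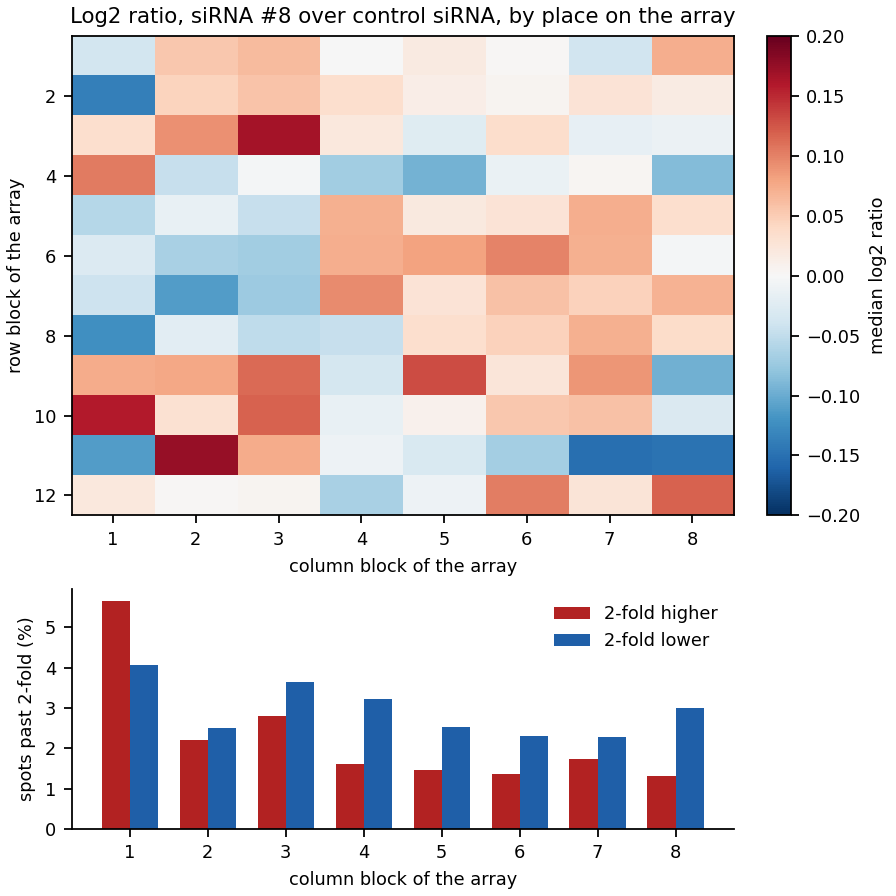
The map shows the median log2 ratio of siRNA #8 over control siRNA in 96 blocks of the array (8 column blocks by 12 row blocks), which ranged from -0.15 to 0.17. The bars show the percent of passing spots at least 2-fold higher (red) or lower (blue) in each column block, highest in block 1 at 5.66% and 4.07%.

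Probes printed on 10 spots gave the most precise ratios within these arrays. Of the 609 that passed, 6 (0.985%) were past 2-fold on the higher side and 16 (2.63%) on the lower. For all 22 the spots of both arrays did not overlap. These probes were picked for a large ratio, which makes such a gap likely, and overlap was not counted over all 609. *PRR15L*, a proline-rich protein, stood apart. Averaged over its spots it read 10.5 (control siRNA), 40.7 (siRNA #7) and 88.7 (siRNA #8), and its mean level was -2.33 ± 0.38 (SD, n = 10 spots) with control siRNA and 1.05 ± 0.18 (SD, n = 10 spots) with siRNA #8. The log2 ratio was 3.38 (10.4-fold higher), and it was 2.28 with siRNA #7, so both siRNA arrays were above control. With normexp background correction the value with siRNA #8 was 1.26. *ANXA9*, an annexin, read 25.7, 24.9 and 64.5, and its log2 ratio was 1.63, beside 0.28 for siRNA #7. The other 4 were *SELENOP*, described above, *ORAI3*, a calcium channel subunit (1.19), *RSPH1*, a part of the radial spokes of cilia (1.15), and *INAVA*, a regulator of innate immune signaling and epithelial junctions (1.12). All 4 were dim with control siRNA (intensities from 7.30 to 22.7), and *RSPH1* and *SELENOP* had like ratios with siRNA #7 (1.25 and 1.22). With normexp the values with siRNA #8 were under 2-fold, at 0.67 for *ANXA9*, 0.25 for *ORAI3*, 0.34 for *RSPH1* and 0.37 for *INAVA*.

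The lowest of the probes on 10 spots was that of *HDDC2*, an HD domain protein, at 93.9 (control siRNA), 58.7 (siRNA #7) and 16.6 (siRNA #8). Its mean level was 0.83 ± 0.07 (SD, n = 9 spots) with control siRNA and -1.37 ± 0.33 (SD, n = 10 spots) with siRNA #8, a log2 ratio of -2.20. A brighter *HDDC2* probe on 1 spot had a log2 ratio of 0.12, so the probes of this gene disagreed. *CEP55* and *EIF4G2*, described above, were also in this group. *RAB5C*, a small GTPase of early endosomes, had mean levels of 1.64 ± 0.14 (SD, n = 9 spots) and -0.23 ± 0.14 (SD, n = 9 spots), and its log2 ratio was -1.87, beside -0.00074 for siRNA #7. *HIF1A*, the oxygen-regulated subunit of hypoxia-inducible factor 1, read 338, 195 and 101 and had a log2 ratio of -1.44. *GBE1*, the branching enzyme of glycogen synthesis, read 357, 239 and 110.4 and had a log2 ratio of -1.39. *RAB5C* was low on the siRNA #8 array alone, whereas *HIF1A* and *GBE1* were lowest on it with the siRNA #7 array in between (-0.47 and -0.25). Among the remaining probes of this group were the cell cycle genes *TOP2A*, *CCNA2*, *CCND1* and *GINS2*, given with their lists. *DSCC1*, *DNAJC9*, *KNL1*, *PSME3IP1* and *TRIM36*, named after their values were seen, had log2 ratios from -1.27 to -1.03.

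**Figure D4:**
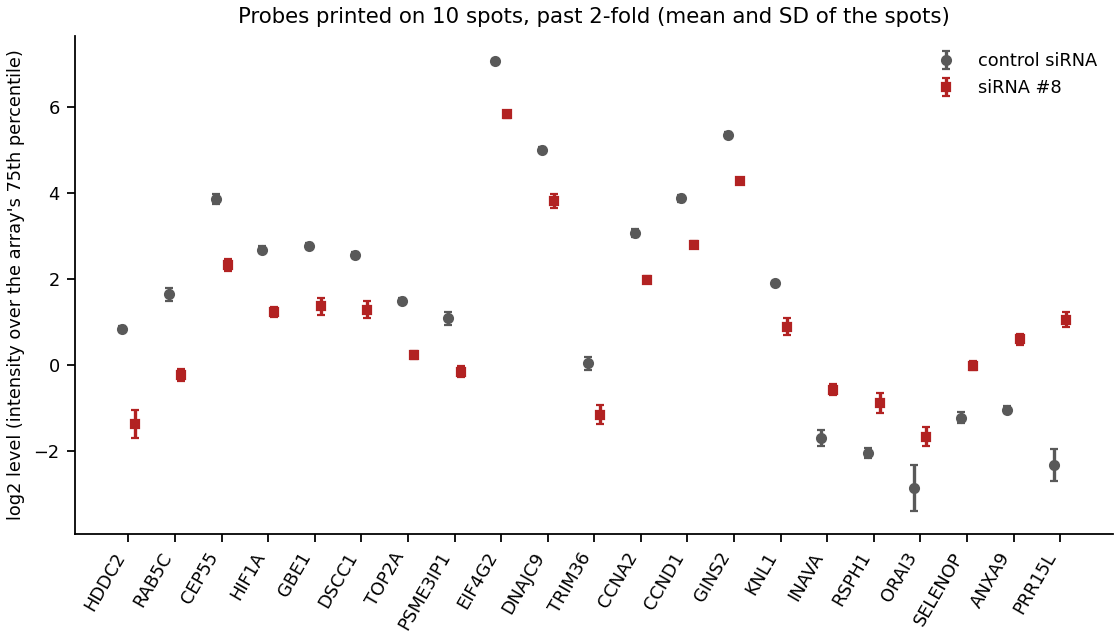
Mean log2 level (intensity over the 75th percentile of the array) of the 22 probes printed on 10 spots and past 2-fold, of which 1 lower probe is not drawn, with control siRNA (grey circles) and siRNA #8 (red squares). Bars are the SD over the spots of 1 array, and the probes on the left are lower and the 6 on the right higher with siRNA #8.

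Gene lists were then read as groups, each gene by the mean of its passing probes. Of all 12302 genes, 48.8% were below 0, 2.69% were past 2-fold on the lower side and the median log2 ratio was 0.011, and the lists are set beside these values. The largest list with every gene on 1 side was DNA replication. All 35 of its genes were measured and all 35 were lower with siRNA #8, with a median log2 ratio of -0.62 and a range from -1.46 to -0.08. Of these, 7 were at least 2-fold lower, with *CDC6*, which loads the replicative helicase, lowest. Without the first 21 columns of the array 32 of 33 were lower, and under the other alternatives tried every measured gene of the list was. With siRNA #7 these genes had a median of -0.17, with 25 of 35 lower and 1 at least 2-fold lower. *PCNA*, the sliding clamp of DNA polymerases, read 3267 (control siRNA), 2427 (siRNA #7) and 1265 (siRNA #8) on its brightest probe, and its 3 log2 ratios with siRNA #8 were -1.07, -0.84 and -1.42. *GINS2*, a subunit of the replicative helicase, read 2141, 1164 and 824 on a probe printed on 10 spots and had a log2 ratio of -1.07. *DTL*, the adaptor of the ubiquitin ligase that removes the licensing factor Cdt1, read 495, 365 and 207 on 10 spots and had a log2 ratio of -0.95. For all 3 genes the siRNA #8 array was the lowest, and the siRNA #7 array gave -0.40 (mean of the probes), -0.55 and -0.11. Fewer cells in S phase and less of each transcript per cell cannot be told apart in RNA from whole cultures.

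The genes of G2 phase and mitosis were next. All 34 were measured and all 34 were below 0 with siRNA #8, with a median of -0.60, a range from -1.41 to -0.0037, and 5 at least 2-fold lower. The gene nearest 0 was *CCNF*, and 1 gene of the list was above 0 with quantile normalization, with the 75th percentile of detected probes and with neighboring spots removed. With siRNA #7 their median was -0.14, with 23 of 34 lower and 1 at least 2-fold lower. *TOP2A*, the topoisomerase that untangles chromosomes before division, read 147 (control siRNA), 115 (siRNA #7) and 50.3 (siRNA #8) and had a log2 ratio of -1.25. *CCNA2*, the cyclin of S phase and G2, read 442, 337 and 169 and had a log2 ratio of -1.08. *KIF20A*, a kinesin of cytokinesis, read 424, 269 and 191 and had a log2 ratio of -0.84. All 3 probes were printed on 10 spots, and the siRNA #7 array lay nearer to control on each, at -0.03, -0.07 and -0.33. The genes of G1 cyclins, E2F and RB were divided, with 13 of 20 lower and a median of -0.14. Of these, *CCND1*, which encodes cyclin D1, read 776, 714 and 297 on 10 spots and had a log2 ratio of -1.08, *CDK2* had -0.48, and *E2F3* had 0.42 and 0.45 on 2 probes.

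The promoters of the replication and mitotic genes are shown because these genes were lower as groups and are known to be controlled through short elements near their start. E2F factors bind sites of the form TTTNNCGC in promoters of S phase genes, and the MuvB complexes bind the CHR element TTTGAA in promoters of mitotic genes, often beside CCAAT boxes bound by NF-Y. Each was searched on both strands of the window from 250 bases before to 50 after the gene start, taken from RefSeq (GRCh38.p14), with 1 window per gene, the first listed. TTTNNCGC was found in 21 of the 31 measured replication genes with a window (67.7%), against 10.8% of the 9715 windows of measured genes and 6.90% of the 27305 windows of all genes. TTTGAA was found in 18 of the 28 measured G2/M genes with a window (64.3%), against 9.31% of measured genes and 15.4% of all. CCAAT was found in 21 of these 28 (75%) and in 19 of the 31 replication genes (61.3%), against 37.1% of measured genes and 35.7% of all. Of the genes lower on several probes, 29 had a window, and no element was more frequent there than among measured genes. TTTNNCGC was found in 3 of these (10.3%), TTTGAA in 2 (6.90%) and CCAAT in 9 (31.0%). Over all measured genes with a window the median log2 ratio was -0.029 in the 1046 that hold TTTNNCGC and 0.0077 in the others. Within the replication list it was -0.83 with the letters and -0.61 without. The lists did not all run this way. For TTTGAA in the G2/M list the medians were -0.61 with and -0.67 without, in the replication list the 1 gene with it was at -0.32 against -0.78 without, and for TTTNNCGC in the histones they were -0.015 in the 2 genes with it and -0.46 without. Below are 60 bases of each promoter of the genes named above that holds the letters searched for its list, 5′ to 3′ on the strand of the gene, with matches to these letters or to CCAAT in capitals (the reverse complement where the match lies on the other strand).
*PCNA* (chr20:5126648-5126707, minus strand): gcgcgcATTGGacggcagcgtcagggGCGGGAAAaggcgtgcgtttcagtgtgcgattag
*GINS2* (chr16:85688952-85689011, minus strand): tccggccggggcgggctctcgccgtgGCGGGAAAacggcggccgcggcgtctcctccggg
*DTL* (chr1:212035714-212035773, plus strand): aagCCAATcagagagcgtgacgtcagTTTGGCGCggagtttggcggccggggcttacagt
*TOP2A* (chr17:40418015-40418074, minus strand): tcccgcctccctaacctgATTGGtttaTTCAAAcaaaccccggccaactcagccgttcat
The E2F-type match starts 59 bases before the gene start in *PCNA*, 31 in *GINS2* and 8 in *DTL*, and the CHR match starts 151 bases before it in *TOP2A*. The windows of *CCNA2* and *KIF20A* hold CCAAT and not TTTGAA. These matches are descriptions of letters and do not show that a factor was bound.

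Lists that go with replication were also mostly lower. Of 26 measured DNA repair genes, 23 were lower with siRNA #8, with a median of -0.49, and 2, *FANCI* among them, were at least 2-fold lower. *EXO1*, the exonuclease of mismatch repair, read 298 (control siRNA), 201 (siRNA #7) and 121 (siRNA #8) on 10 spots and had a log2 ratio of -0.995, just inside 2-fold. *FANCA*, of the Fanconi anemia pathway that repairs crosslinks, had log2 ratios of -0.47, -1.12 and -0.70 on 3 probes. Of 21 measured core and linker histone genes, 19 were lower, with a median of -0.45 and 5 at least 2-fold lower, while with siRNA #7 their median was 0.11. *H2AC6* had log2 ratios of -1.56 and -0.86, and *H3-3B*, a replacement histone made outside S phase, had -0.30 and -0.48. *H2BC12* was on the other side, at 0.03 and 0.69. Histone genes are near-identical copies of each other, so a probe may read several of them.

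All 8 measured metallothioneins, small proteins that bind zinc and copper and are induced by metals and stress, were lower with siRNA #8, with a median of -0.73 and 3 at least 2-fold lower. *MT1X* read 5253 (control siRNA), 4353 (siRNA #7) and 2091 (siRNA #8) on its brighter probe, and its log2 ratios were -1.03 and -1.01. *MT1E*, at 15239.7, 13362 and 8349, had -0.56 and -0.74. With siRNA #7 the means of *MT1X* and *MT1E* were -0.16 and 0.15, and over the list the median was 0.02, with 4 of 8 lower. The genes of this family are near-identical and their probes may share signal, so the 8 values are not separate measurements.

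Genes of growth factor signaling were lower in part. Of 22 genes of ERK output and immediate early genes, 19 were lower, with a median of -0.38 and 4 at least 2-fold lower. *IER3* and *CCND1*, given above, were 2 of these, the others were *DUSP5*, a phosphatase induced by ERK, and the transcription factor gene *EGR1*, and *MYC* had a log2 ratio of -0.20 on 10 spots. The 8 measured receptors and ligands of the *EGFR* family had a median of -0.0019. Within them *AREG*, a ligand of *EGFR*, read 1542 (control siRNA), 1238 (siRNA #7) and 703 (siRNA #8) on its bright probe and 213, 217 and 41.1 on a dimmer one, and had log2 ratios of -0.83 and -2.07. *ERBB2*, a receptor of the family, read 469.7, 443 and 562 on 10 spots and had a log2 ratio of 0.56. *AREG* was low on the siRNA #8 array alone (0.01 and 0.35 with siRNA #7), and *ERBB2* was highest on it.

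Lists of metabolism and stress showed smaller shifts. In glycolysis and the hypoxia response 20 of 27 genes were lower, with a median of -0.35 beside -0.37 with siRNA #7. *PFKP*, the platelet form of phosphofructokinase, had log2 ratios of -0.85 and -0.71, *ADM* had -0.71 on 10 spots, and *BNIP3L*, a receptor of mitophagy, had -0.56 and -0.68. In the unfolded protein response 15 of 17 genes were lower, with a median of -0.28 beside -0.25. Its named members were small in size, with -0.01 for *XBP1* on 10 spots and -0.28 and -0.11 for *CANX*. Among heat shock proteins 14 of 19 were lower (median -0.21), with -0.24 and -0.66 for *HSP90AB1*. In cholesterol and fatty acid synthesis 18 of 27 were lower (median -0.13 beside -0.38 with siRNA #7). There *MSMO1*, an enzyme of cholesterol synthesis, had -0.96 on 10 dim spots.

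On the other side, 26 of 34 genes of cytosolic ribosomal proteins were higher, with a median of 0.18 and none past 2-fold. The shift was smaller under other processing, with a median of 0.014 and 20 of 34 higher with quantile normalization, and of 0.017 and 18 of 34 higher with normexp. *RPL23* had log2 ratios of 0.05 and 1.90 on probes of similar brightness, and *RPS13* had 0.24 and 1.14, so their means rest on 1 of 2 probes. The spots around these 2 higher probes were also high, with median log2 ratios of 1.01 and 0.67. With neighboring spots removed the 2 probes were at 0.87 and 0.38. With siRNA #7 they had 2.34 and 1.03 over the same control array. In 9 of the 34 genes a probe lay in the first 21 columns of the array. Of the 34, 18 had at least 2 passing probes, and the share over all genes was not counted. Oxidative phosphorylation (24 of 33 higher, median 0.07), snoRNA host and other long non-coding RNAs (11 of 16 higher, median 0.20) and the BMP and TGF-beta response (6 of 9 higher, median 0.21) were also above 0. With scaling on the spike-in probes the medians of these 4 lists were below 0, at -0.061, -0.17, -0.037 and -0.030, and with normexp that of oxidative phosphorylation was -0.064.

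No shift of comparable size was seen in the p53 targets (15 of 25 higher, median 0.03), the apoptosis genes (14 of 29 higher, median -0.04) or the interferon and RNA-sensing genes (11 of 21 higher, median 0.04), a response that transfected RNA can evoke. At least 2-fold higher were 2 of the p53 targets and 1 of the apoptosis genes, and none of either list was 2-fold lower. With neighboring spots removed, 1 of the p53 targets and none of the apoptosis genes was 2-fold higher. None of the interferon and RNA-sensing genes was past 2-fold either way. The interferon-induced *IFITM1*, given above, is not among the measured genes of this list. Its mean was 1.15 with siRNA #8 and 0.96 with siRNA #7. Single members of these lists that were measured on several probes also differed. *DDB2*, a p53 target of nucleotide excision repair, had log2 ratios of -0.83 and -0.71, *BID*, which links death receptors to mitochondria, had -0.36 and -0.55, and *RIGI*, a sensor of viral RNA, had 0.80 and 0.47. In the RNA interference machinery 10 of 13 genes were lower (median -0.12), and *AGO2*, the Argonaute that cuts target RNA, had -0.18 on 10 spots. In the HOX list 22 of 39 genes were measured, 13 of them lower, with a median of -0.17. *HOXA9* had log2 ratios of -0.47 and -0.16, *HOXA3* had -1.31 (spot-to-spot SD 0.41) and *HOXB5* 1.13 (spot-to-spot SD 0.18), the last 2 on 1 spot each. With normexp *HOXA3* was at -0.25. The *HOXB5* spot lay in the first 21 columns, and its value was 0.75 with neighboring spots removed. Among epithelial junction genes (14 of 25 higher, median 0.03) *CDH1*, which encodes E-cadherin, read 324 (control siRNA), 346 (siRNA #7) and 407 (siRNA #8) on 10 spots and had a log2 ratio of 0.63. The probes of *CTNNA1* disagreed in size, at 0.10 on a bright spot and 2.73 on a dim one, both in the first 21 columns.

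The remaining lists had medians between -0.26 and 0.042. The NF-kB inhibitors and chemokines had 7 of 11 lower, and *CXCL2*, a chemokine, had -0.87 and -0.41 on dim probes. Wnt/beta-catenin targets had 7 of 13 lower, although *AXIN2*, a feedback inhibitor of that pathway, had 0.74 and 0.97. Splicing factors (15 of 22 lower), ribosome biogenesis genes (13 of 21 lower), proteasome subunits (18 of 28 lower) and aminoacyl-tRNA synthetases (12 of 20 lower) had medians of -0.13, -0.09, -0.049 and -0.019. NRF2 targets (10 of 19 lower), *ATF4* targets (11 of 20 lower), lysosome and autophagy genes (12 of 23 higher) and high mobility group proteins (6 of 10 higher) had medians within 0.05 of 0. Of the high mobility group proteins 1 was at least 2-fold higher (2.54) and none lower. Without the first 21 columns of the array none was higher and 1 was lower by 2-fold. Of the NRF2 targets 3 were at least 2-fold lower and none higher. These were *NQO1* (-1.28), *TXNRD1* (-1.17) and *AKR1B10* (-1.09), each on 1 spot and named after their values were seen, and with normexp none of the list was past 2-fold. *HMOX1*, of the same list, read 865 (control siRNA), 434 (siRNA #7) and 975 (siRNA #8) on 10 spots, and its log2 ratio was 0.48, beside -0.67 for siRNA #7.

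Up to 3 members of each list, those with the largest ratios among genes measured on several probes of the same sign or on 10 spots, were chosen for naming, and the log2 ratios of those not yet given follow per probe. Of the splicing factors chosen, 1 probe lay below the other in *TRA2B* (-0.25 and -1.18), *HNRNPD* (-0.17 and -1.21) and *SRSF7* (-0.16 and -0.83). Of the nucleolus *NOP56* (-0.36, -0.63 and -0.05), *NPM1* (-0.17, -0.68, -0.08 and -0.02) and *DKC1* (-0.13 and -0.10) were below 0 on every probe. Of the lysosome, its membrane protein *LAMP2* (-0.28, -0.82 and -0.65) and the cholesterol exporter *NPC1* (-0.47) were below 0 and *TFEB*, a transcription factor of lysosomal genes, above it (0.38 and 0.49). The proteasome subunits *PSMD1* (-0.59 and -0.29) and *PSMD2* (-0.17 and -0.18) were below 0 and *PSMB1* (0.18 and 0.21) above, and the synthetases *MARS1* (-0.11 and -0.33) and *IARS1* (-0.07, -0.13 and -0.02) were below and *SARS1* (0.08 and 0.33) above. The chromatin proteins chosen were above 0, with *HMGN1* (0.30 and 0.24), *HMGN2* (0.19, 0.36 and 0.14) and *HMGN5* (0.16), while *HMGN4* of the same family, on 1 spot, had -0.25. Above 0 were also the respiratory chain subunits *COX7C* (0.29), *UQCRC2* (0.28) and *NDUFB8* (0.21 and 0.22) and the ribosomal protein gene *RPS23* (0.16 and 0.62). The *ATF4* targets *DDIT4* (-0.35), *MTHFD2* (-0.15) and *CEBPB* (0.09) lay on both sides of 0. So did the p53 targets *CCNG1* (0.13 and 0.37) and *RRM2B* (-0.16 and -0.29), the chaperones *HSPH1* (-0.15 and -0.43) and *HSPA4* (0.10 and 0.44), the non-coding RNAs *SNHG7* (-0.49 and -0.90) and *NEAT1* (0.04, 0.35, 0.22 and 0.61), and *NFKBIA*, an inhibitor of NF-kB (0.29), beside its subunit gene *NFKB1* (-0.26). Of the apoptosis genes, *DIABLO*, an antagonist of the inhibitors of apoptosis, had -0.65 and -0.08. The integrin gene *ITGA6* (-0.60 and -0.53), the Argonaute gene *AGO3* (-0.07 and -0.36), the interferon-induced *HERC5* (-0.12) and the ligand gene *TGFB1* (-0.19) were below 0. *ZNRF3*, which removes Wnt receptors (0.17 and 0.55), *ID2*, a BMP target (0.11 and 0.31), *FTL*, the ferritin light chain (0.18, 0.17 and 0.05), and the lipid synthesis genes *HSD17B7* (0.19, 0.43 and 0.08) and *ACACA* (0.02 and 0.20) were above 0.

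**Figure D5:**
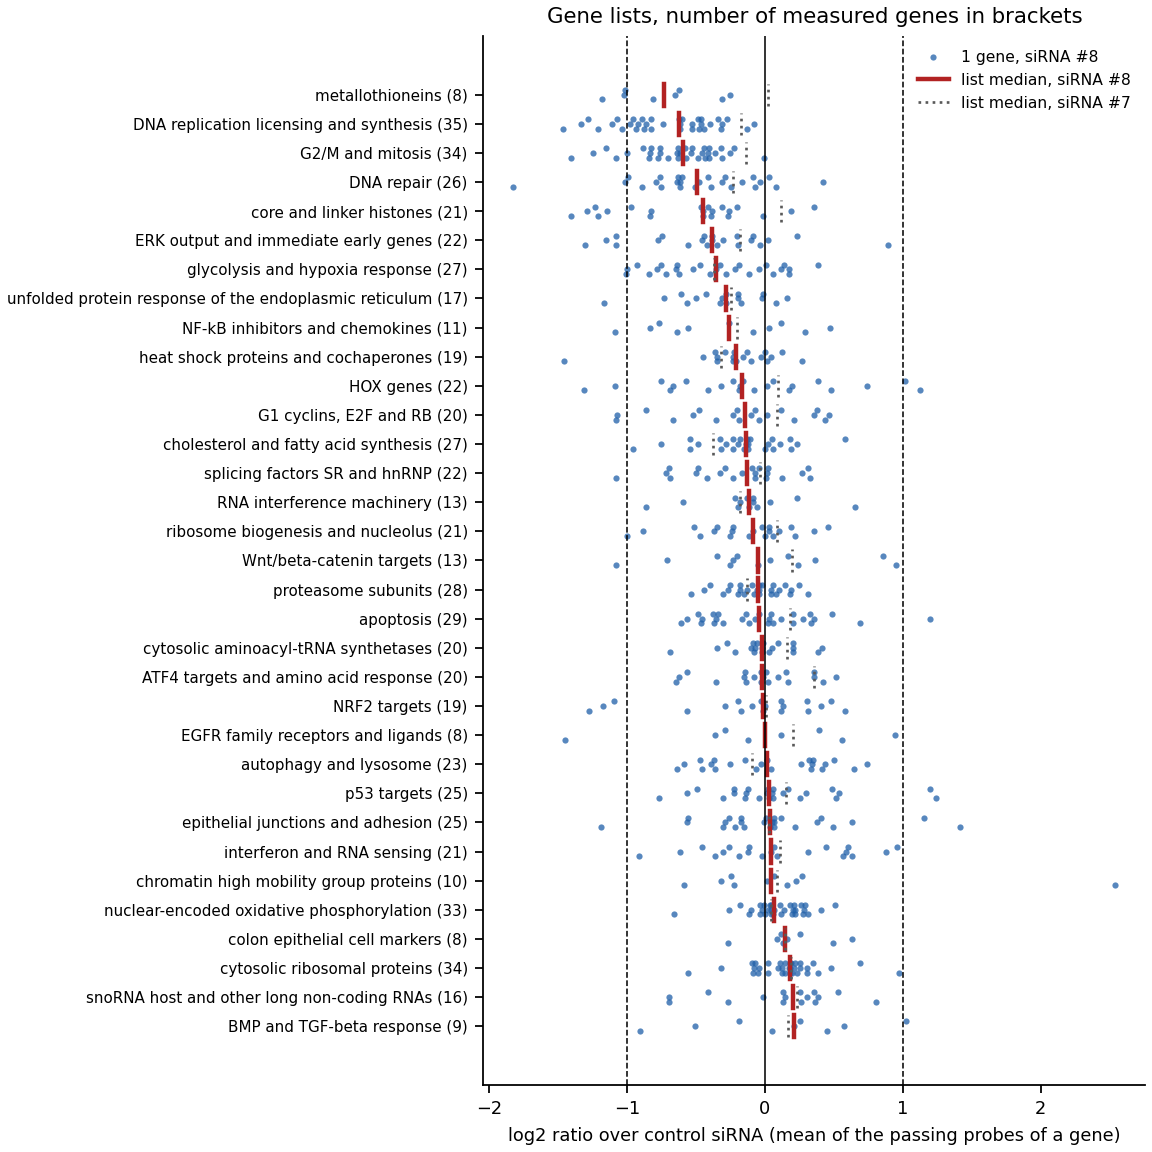
Log2 ratio over control siRNA of each measured gene (blue points, mean of its passing probes) in the 33 lists with at least 5 measured genes, whose number is in brackets. Red bars are list medians with siRNA #8, dotted bars those with siRNA #7, and dashed lines mark 2-fold; the metallothioneins, DNA replication and G2/M genes lie lowest, at medians of -0.73, -0.62 and -0.60, with no gene above 0.

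The cells carried epithelial markers on both arrays. Of 15 colon epithelial markers 8 were well above background, among them *EPCAM*, *KRT8*, *KRT18* and *KRT19*, while *KRT20*, *VIL1*, *LGALS4* and *CEACAM5* were not. Their summed intensity, taking the brightest probe of each gene, was 56480.4 (control siRNA), 51285.4 (siRNA #7) and 48046.8 (siRNA #8). These sums are not scaled for the brightness of the arrays, and after scaling 7 of the 8 genes were higher with siRNA #8, with a median log2 ratio of 0.15. This depended on the processing, with a median of -0.095 and 3 of 8 higher with scaling on the spike-in probes. With normexp the median was 0.00038, with 4 of 8 higher. Of 13 fibroblast and endothelial markers 1 passed on both arrays (*COL1A1*), with *COL1A2*, *COL3A1*, *PECAM1* and *CDH5* not well above background, while *VWF* passed with siRNA #8 only (9.62). Of 8 blood cell markers with a probe 2 passed (*CD14* and *CD68*, both dim), with *PTPRC* and *CD3E* not well above background. The unscaled summed intensities were 76.0 and 68.3 for the first list and 42.0 and 38.9 for the second, with control siRNA and siRNA #8.

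Some probes were well above background on 1 array of the pair only, and for these a bound is given in place of a ratio. The bound sets the measured level against the higher of the dimmest level called well above background on the other array and the probe's own level there. With siRNA #8 only, 462 probes were well above background, and 222 of these had a bound of at least 2-fold higher. With control siRNA only there were 1686, and 131 of these had a bound of at least 2-fold lower. The dimmest intensity called well above background was 6.13 with control siRNA and 6.98 on the dimmer siRNA #8 array. The floors thus differ, and the counts of both sides are not directly comparable. *GPER1*, higher on both of its passing probes, had a pair of such probes, at least 2.70 and 2.23 times as bright, from measured intensities of 2.82 and 5.95 with control siRNA to 13.4 and 11.1 with siRNA #8. *ZNF594*, a zinc finger gene, was at least 2.65-fold and 1.93-fold higher, and *LRRC37A3* at least 2.47-fold and 1.38-fold. On the lower side, *IL6ST*, the signaling chain gp130 of the interleukin 6 receptor family, was at least 2.23-fold and 1.68-fold lower on a pair of probes, and lower on both of its passing probes, at -1.09 and -0.30. *LYPD6* was at least 2.19-fold and 2.11-fold lower, and *OSBPL8*, a lipid transfer protein of the endoplasmic reticulum, at least 2.97-fold and 1.26-fold. These probes are dim, and a bound leaves out the spot-to-spot error.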

How the data were processed

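Gene expression was measured on 1-color SurePrint G3 arrays in HCT116 cells, 48 h after 3 siRNA treatments (control, #7 and #8), with 1 array for each. All 3 arrays lay on 1 slide, so that slide and scan do not separate the conditions. The authors scanned the arrays with Agilent Feature Extraction 11.5.1.1, and the deposited intensity of each spot is background-subtracted and not scaled between arrays. A second deposited file gives log2 values for 21189 probes. Differences between its siRNA #8 and control siRNA columns had a slope of 1.00 to those of log2 intensity with a shift of 0.30, the same as between the 75th percentiles of the arrays, and each probe is centered on its median over the arrays (column medians of 0). The study named GeneSpring and a filter on the lowest 20th percentile and on flags, and the step that made this table is not given in the sources used here.

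Each array has 62976 spots, of which 58717 carry 50599 gene probes. Outlier-flagged gene spots (409 with control siRNA, 313 with siRNA #8) did not enter. Replicate spots were averaged per probe, and each array was scaled by subtracting the log2 of its 75th percentile over gene probes (52.8 and 42.8). A probe was well above background if that flag was set on at least 50% of its spots, which held for 20473 probes with control siRNA and 19250 with siRNA #8, and no spot was saturated. The number of arrays limits the precision, and intervals here cover spotting error only. Symbols for 30004 probes came from RefSeq (GRCh38.p14), matched on accessions without version. The array design used an older build, so no probe coordinates are given. Work was done in Python 3.11.15 with numpy 2.4.6 and pandas 2.3.3, with limma 3.58.1 in R 4.3.3 for normexp (offset 50, on median spot signals, as the files hold no mean), and the steps were tested on simulated data.

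No test was run, since each condition has 1 array. The named genes are *HOXA5*, *HOXA6* and *EGFR*, the 15 highest and 15 lowest genes with several probes, ranked by the probe nearest 0, the 6 highest and 6 lowest probes on 10 spots, up to 3 members per list with the largest ratio among those with several probes or 10 spots, and the 3 largest bounds each way among genes with 2 such probes. Of the genes that these rules name, 3 are not reported here. Genes named outside these rules are members of a list or count and were chosen after their values were seen. The comparison, the members and the 35 lists (782 genes, 674 of them measured) were chosen with earlier results of these data known. The alternatives tried were other scalings (median, 75th percentile of detected probes, quantile normalization, E1A spike-in probes, the deposited log2 table), normexp, other filters on dim probes, outlier spots kept, a threshold of 1.5-fold, the brightest probe of a gene and removal of the median of neighboring spots within 3 rows and columns. Leaving out the first 21 columns was added after seeing the data. Slide or scan as a block was not run, with 1 array per condition.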

Additional observations from a re-analysis of the deposited data

How the results depend on the processing

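Scaling on the 10 E1A spike-in probes, which shifted every ratio by -0.24, gave 231 probes higher and 1024 lower, 12 and 101 genes with several probes, and 2 and 33 probes on 10 spots. Normexp background correction, which pulls dim spots together, gave 82 probes higher and 225 lower, 5 and 15 genes with several probes, and 1 and 11 probes on 10 spots. Of the 15 higher genes described, *KDM5B*, *GM2A*, *PDCD5*, *VHRT* and *WBP1* had a mean past 2-fold with it. Of the genes described as past 2-fold lower on several probes, *ESCO2* (-0.85), *SKA2* (-0.85), *FMR1* (-0.51), *DESI2* (-0.91), *LINC00659* (-0.74), *VDAC1* (-0.93) and *H2AC6* (-0.75) had a mean under 2-fold with it. So did *HDDC2* (-0.41), whose probes disagreed. *TOP2A* (-0.82) and *HOXA3* (-0.25), each measured on a single probe, were also under 2-fold with normexp. With an intensity of at least 50 required on 1 array, 237 probes were higher, 13 and 24 genes with several probes were higher and lower, and 2 probes on 10 spots were higher. With probes well above background on either array, 769 probes were higher and 1065 lower, with 47 and 85 genes with several probes, since probes measured on 1 side then enter. With the 75th percentile of detected probes, 11 probes on 10 spots were higher. Leaving out the probes in the first 21 columns, an alternative added after seeing the data, left 15 higher genes with several probes. Genes left with 1 passing probe drop out of this count whatever their value. A threshold of 1.5-fold gave 1700 probes higher and 1811 lower, 147 and 198 genes, and 41 and 57 probes on 10 spots. Taking the brightest probe of a gene turned *HDDC2* from -2.20 (its probe on 10 spots; gene mean -1.04) to 0.12, since its brighter probe was near control. The list medians moved by less than the spread of the list in 416 of 418 alternative values. The metallothioneins reached -0.99 with normexp, and the fibroblast and endothelial list reached 0.49 when probes on either array entered. Genes within a list differ widely, so this count could hardly show a shift. The median changed sign in 5 of 12 alternatives for interferon genes, 4 for junction genes and for high mobility group proteins, and 3 for p53 targets. It kept its sign in all 12 for replication, G2/M and metallothioneins. Of 1566 alternative values of the 132 named genes, 1247 stayed within the spread of probes or spots, 318 moved past it, and 1 value past 2-fold (*HDDC2*) changed sign. No paired analysis was possible because there is 1 array for each siRNA. Slide or scan as a block was not run for the same reason. Dim spots limit the higher genes in particular, since at the lowest signals the spotting error of a ratio was 0.41.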
